A study of Mus musculus with 12 samples.

Results

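The 10 genes of the NOTCH pathway described here were followed in quiescent satellite cells (QSCs), the stem cells of skeletal muscle: the receptors Notch1, Notch2 and Notch3, the ligands Dll1, Jag1 and Jag2, the nuclear factor Rbpj, and the target genes Hes1, Hey1 and Heyl. They were picked as a named pathway by gene symbol, and are 10 of the 25093 genes of the count table. All 10 were in the table and had counts in each of the 6 QSC libraries, from 545 estimated reads for Jag2 in its lowest library to 164757 for Notch3 in its highest.

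The series holds 12 mouse samples in 4 groups of 3: QSCs and activated satellite cells (ASCs), each from control and from Gli3 knockout mice. Control mice were Pax7CE/+; Gli3+/+; R26RYFP and knockout mice were Pax7CE/+; Gli3fl/fl; R26RYFP, called Gli3+/+ and Gli3Δ/Δ below. Every mouse of both genotypes, aged 3 to 4 months, therefore carried 1 Pax7 allele with a tamoxifen-inducible Cre and the YFP reporter, and received tamoxifen. The Cre acts in PAX7-expressing cells, so the other cells of the muscle keep Gli3, the repressor and activator of Hedgehog signaling whose exon 8 is flanked by loxP sites. QSCs were sorted from uninjured hindlimb muscle as α7-INTEGRIN+ CD34+ cells without CD31, CD45, SCA1 or CD11b, and each QSC library combined 2 to 3 mice. The paper states that sorting partly activates such cells, and uses QSC as its name for freshly isolated cells. ASCs came from tibialis anterior and gastrocnemius muscle injured with cardiotoxin 3 days earlier, and each sample came from a single mouse. They were sorted with VCAM1 in place of CD34. The 6 library columns of the count table other than the QSC columns match no sample label, and for 2 ASC samples the title and the genotype label disagree. These columns were not analysed here, and neither the effect of the genotype in ASCs nor the change from QSC to ASC was tested.

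NOTCH receptors are membrane proteins that are cut when a ligand of the Delta or Jagged family on a neighbouring cell binds them. The freed intracellular part enters the nucleus, joins the DNA-binding protein RBPJ with a Mastermind coactivator, and switches on genes of the HES and HEY family, which are themselves repressors. In adult muscle this pathway is known for holding satellite cells in quiescence, and loss of Rbpj leads them to differentiate without dividing.

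Sequence upstream of the start was available for 7 of the 10 genes, in 9 windows of 250 bases (RefSeq, build GRCm38.p6). Windows were searched on both strands for TGGGAA, the core of the site that RBPJ binds, and for the N-box CACNAG, a site of HES repressors. The RBPJ core stood in 21.6% of 32851 windows of this length over all genes and, among the 9, in both windows of Rbpj itself, which overlap and share a match. The N-box stood in 36.7% of all windows and in those of Notch1, Notch2 and Notch3, the receptors whose levels are compared below. The Rbpj window that lies further upstream (chr5:53590096-53590345, plus strand) and the Notch3 window (chr17:32166891-32167140, minus strand) each held 2 matches. They are shown because they are the member windows with the most matches to each motif. Each is written 5′ to 3′ along the gene, and the capitals mark the RBPJ core or its reverse TTCCCA in Rbpj and the N-box or its reverse CTNGTG in Notch3.
Rbpj: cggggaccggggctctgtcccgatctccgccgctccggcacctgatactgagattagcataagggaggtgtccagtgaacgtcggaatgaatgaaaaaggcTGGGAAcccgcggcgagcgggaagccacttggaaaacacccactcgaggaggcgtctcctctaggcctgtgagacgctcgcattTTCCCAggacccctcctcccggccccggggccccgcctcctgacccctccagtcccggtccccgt
Notch3: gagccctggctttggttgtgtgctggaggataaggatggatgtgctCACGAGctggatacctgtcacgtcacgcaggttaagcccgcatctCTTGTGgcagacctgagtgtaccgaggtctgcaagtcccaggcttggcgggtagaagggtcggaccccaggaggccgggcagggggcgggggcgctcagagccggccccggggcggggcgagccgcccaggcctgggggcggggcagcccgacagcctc
A match describes the letters only. The genes without a window were Hes1, Hey1 and Heyl.

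The 6 QSC libraries held 39556784 to 65750131 estimated counts. In a principal component analysis of the most variable genes the first component carried 53.5% of their variance and placed the genotypes on opposite sides. Gli3+/+ replicates 3 and 1 lay at opposite ends of the second component, at 12.24 and −10.11, with the other libraries at −4.84 to 4.75. Satellite cell markers were at 4996 to 7488 CPM summed over 11 genes in Gli3+/+ and at 5286 to 5621 CPM in Gli3Δ/Δ libraries (CPM are counts scaled by the library total and the TMM factor, and are used throughout unless a sentence says otherwise). Pax7 was between 798 and 1157 CPM in every library. Gli3 itself was counted at 11.2, 9.71 and 9.75 CPM in Gli3+/+ and at 9.54, 10.5 and 6.25 CPM in Gli3Δ/Δ QSCs, a log2 fold change of −0.22 (SE 0.22, edgeR adjusted p = 0.916). Counts per gene do not separate exon 8 from the rest of the transcript, so they do not check the deletion. The paper reports that excision was verified by RT-qPCR in QSCs and by western blot for GLI3 in myoblasts.

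Among receptors, Notch3 was the most abundant in QSCs. Per kb of exon, the scale on which genes of different length can be set side by side, Notch3 was at 218 ± 54.2 CPM per kb (SD, n = 6 libraries), Notch2 at 46.1 ± 6.72 and Notch1 at 28.7 ± 6.24. Notch4, a receptor known mainly from endothelium, was at 0.51 CPM per kb. Of the 4 receptors summed per length, Notch3 took 73.7% ± 4.36, Notch2 15.9% ± 2.25, Notch1 10.2% ± 3.46 and Notch4 0.177% ± 0.0745 (SD, n = 6). The share of Notch3 was 68.6% in its lowest and 79.4% in its highest library, so that no library had another receptor in front.

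Among ligands, Jag1 led at 21.5 ± 4.07 CPM per kb, followed by Dll1 at 5.59 ± 0.927 and Jag2 at 2.57 ± 0.841 (SD, n = 6). Jag1 took 70.9% ± 4.71 of the 5 canonical ligands summed per length, Dll1 18.9% ± 4.45 and Jag2 8.5% ± 2.41. Dll4 made up 1.58% and Dll3 0.0848%. The lowest library of Jag1 (16.9 CPM per kb) was above the highest of Dll1 (7.02), and the lowest of Dll1 (4.42) was above the highest of Jag2 (3.77). Rbpj, the partner of all 4 receptors, was at 9.97 ± 0.304 CPM per kb (SD, n = 6) and on this length lay between Jag1 and Dll1 without overlapping either. Divided by the longest transcript or by the coding length, Rbpj was above Jag1 (23.2 against 22.3, and 80.6 against 34.3 CPM per kb).

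Hes1 and Heyl were the most abundant of the target family. Hes1 was at 148 ± 26.6 and Heyl at 136 ± 17.3 CPM per kb (SD, n = 6), and Hey1 at 30.6 ± 10.1. Of the 7 HES and HEY genes in the table, Hes1 took 44.8% ± 2.59 of the sum per length, Heyl 41.5% ± 4.84, Hey1 9.11% ± 1.6 and Hes6 4.2% ± 1.25. Hey2, Hes7 and Hes2 did not exceed 0.334% in any library. Hes1 was above Heyl in 4 of 6 libraries and Hey1 above Notch1 in 4 of 6, so these neighbours in the order of the 10 genes did not differ beyond their spread.

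**Figure D1:**
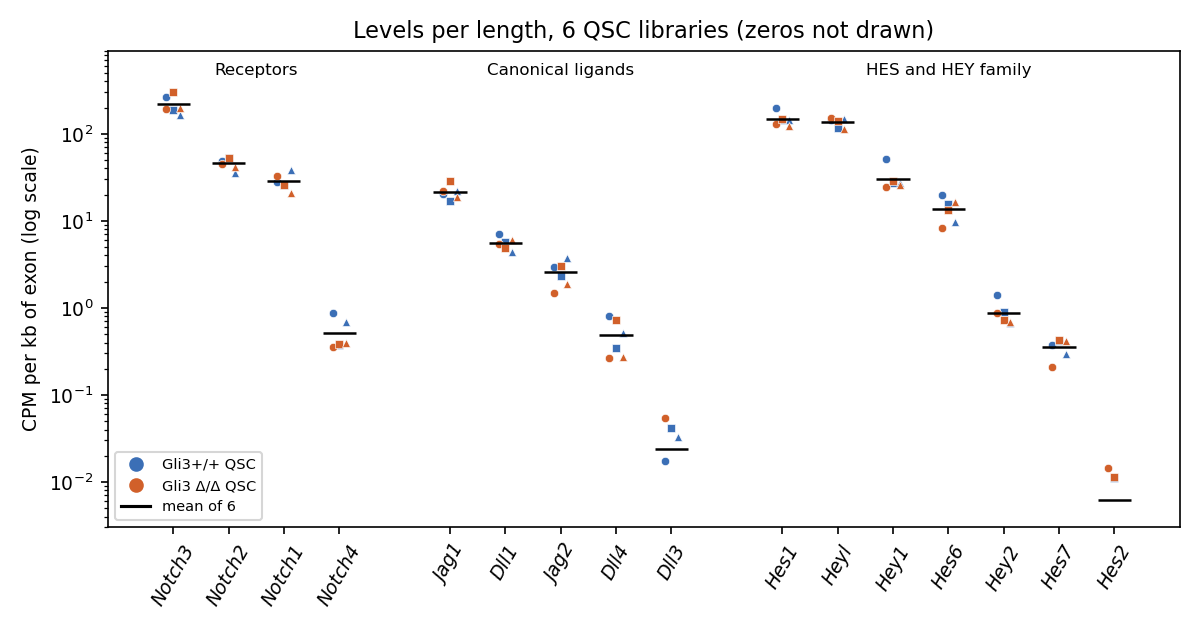
Level of each receptor, canonical ligand and HES or HEY gene in CPM per kb of exon (vertical axis, log scale) in the 3 Gli3+/+ (blue) and 3 Gli3Δ/Δ (orange) QSC libraries; black lines are means of 6 and libraries at 0 are not drawn. Notch3 (mean 218), Jag1 (21.5) and Hes1 with Heyl (148 and 136) are the highest of their classes.

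The full order of means per kb was Notch3, Hes1, Heyl, Notch2, Hey1, Notch1, Jag1, Rbpj, Dll1 and Jag2. Notch3 was above Hes1 in 6 of 6 libraries although their ranges over libraries overlapped, and Notch2 was above Hey1 in 5 of 6. The ranges did not overlap at 4 steps: Heyl over Notch2 (ratio of means 2.96), Jag1 over Rbpj (2.15), Rbpj over Dll1 (1.78) and Dll1 over Jag2 (2.17). The step from Jag1 to Rbpj turned around on both other lengths. Notch3 exceeded 99.2% of all genes per kb and Jag2 59.6%. The order depends on the length used. The exons of all isoforms together are long for Notch1 (14232 bases) and Rbpj (12750 bases), and the coding sequence of Heyl is short (978 of 5113 exon bases). Divided by the longest transcript, 6 of the 10 places were kept. Divided by the longest coding sequence, 3 were kept and Heyl came first at 713, before Hes1 at 357 and Notch3 at 253 CPM per kb. On all 3 lengths Notch3 was the highest receptor, Jag1 the highest ligand, and Hey1 the lowest of the 3 targets.

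Deletion of Gli3 was compared with its control in QSCs for each gene. None of the 10 genes was called (adjusted p under 0.05 and a fold of at least 1.2, edgeR), against 88 of all 25093 genes, or 0.351%. At an unadjusted p under 0.05, 0 of 10 passed, against 7.11% of all genes. With DESeq2, 0 of 10 were called, against 1.64% of 23369 genes given an adjusted p, and limma-voom called 0 of 10, against 0.291% of all genes. The values of the Gli3+/+ and Gli3Δ/Δ libraries overlapped in 10 of 10 genes, and groups that did not overlap were seen in 13.0% of all genes. Of the members, 4 had a log2 fold change above 0 and 6 below, and the number above 0 was 2 without Gli3Δ/Δ replicate 2 and 6 without Gli3+/+ replicate 1. The median was −0.04, against −0.03 over all genes, and the median absolute log2 fold change was 0.2, against 0.25 over all genes and 0.13 over the 9592 genes with a mean of at least 10 CPM. With 3 libraries a group, changes of modest size can go uncalled. In simulated counts of this comparison edgeR recovered 69% of 2-fold and 99% of 4-fold changes, and smaller changes were not simulated. In these bulk libraries fewer cells of a type and less RNA per cell cannot be told apart.

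**Figure D2:**
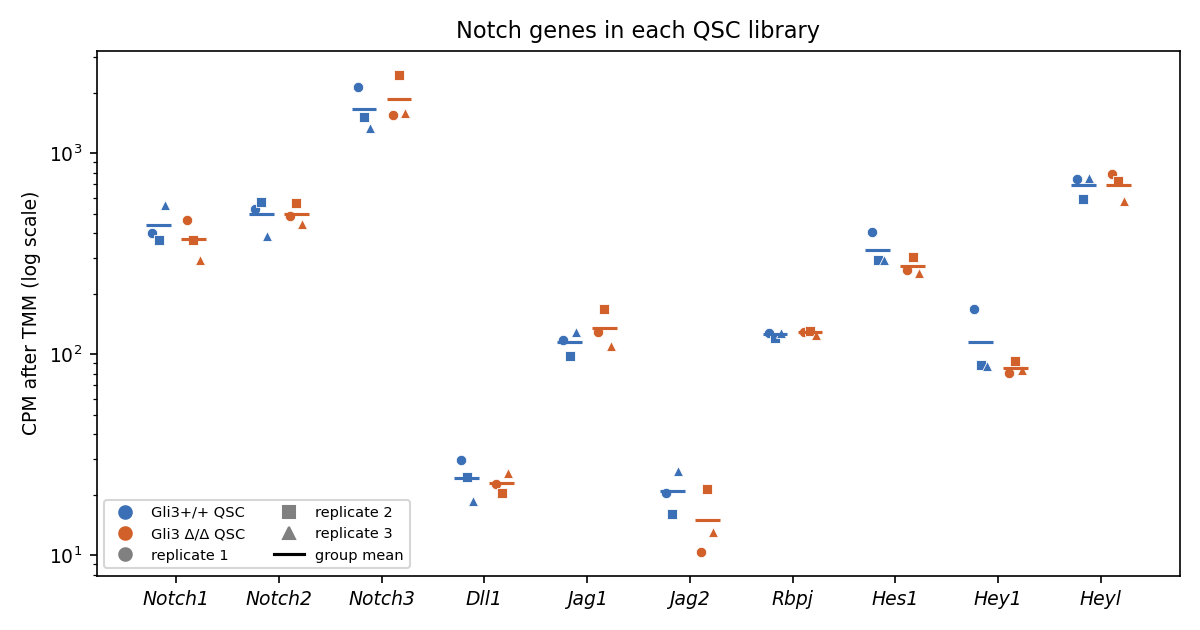
CPM after TMM scaling (vertical axis, log scale) of each gene in the 3 Gli3+/+ (blue) and 3 Gli3Δ/Δ (orange) QSC libraries, with the marker shape giving the replicate and lines the group means. The groups overlap for each of the 10 genes.

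Notch1 (ENSMUSG00000026923.15, chr2:26457903-26516663, minus strand, GRCm38), a receptor studied in the activation of satellite cells, was counted at 400.4, 368 and 551 CPM in Gli3+/+ and at 463, 370.2 and 295 CPM in Gli3Δ/Δ QSCs. Its highest library was Gli3+/+ replicate 3 and its lowest Gli3Δ/Δ replicate 3, and the other 4 lay together between them. The log2 fold change was −0.23 (SE 0.21, 95% interval −0.70 to 0.25, edgeR adjusted p = 0.912) and ran from −0.40 without Gli3Δ/Δ replicate 1 to −0.03 without Gli3+/+ replicate 3.

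Notch2 (ENSMUSG00000027878.11, chr3:98013527-98150361, plus strand) stood at 529, 572 and 386 CPM in Gli3+/+ and at 488, 564 and 446 CPM in Gli3Δ/Δ libraries. Replicate 3 was the lowest of each genotype. The log2 fold change was 0.01 (SE 0.18, 95% interval −0.39 to 0.41, edgeR adjusted p = 1.0). All 6 Notch2 counts were not whole, and the transcripts Gm42819 and Gm42820, which overlap it on the same strand, were at 2.95 to 4.76 and 3.74 to 7.14 CPM.

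Notch3 (ENSMUSG00000038146.7, chr17:32120820-32166852, minus strand, placed by the next version of its identifier) was at 2142, 1511 and 1328 CPM in Gli3+/+ and at 1551, 2458 and 1579 CPM in Gli3Δ/Δ QSCs. Gli3+/+ replicate 1 and Gli3Δ/Δ replicate 2 were high, and 4 lay between 1328 and 1579 CPM. The log2 fold change was 0.17 (SE 0.24, 95% interval −0.37 to 0.70, edgeR adjusted p = 0.942), and ran from −0.09 without Gli3Δ/Δ replicate 2 to 0.39 without Gli3+/+ replicate 1. Mural cells, the smooth muscle cells and pericytes of vessels, are also known to express Notch3. Their 8 markers summed to 509 CPM in Gli3+/+ replicate 3, where Notch3 was lowest, and to 245 to 309 CPM in the other 5 libraries. Acta2 made up 347 CPM of the sum in that library. The other 7 markers summed to 190, 159.8 and 162 CPM in Gli3+/+ replicates 1, 2 and 3. In Gli3Δ/Δ replicates 1, 2 and 3 they summed to 101, 129 and 127 CPM. The highest Notch3 was in Gli3Δ/Δ replicate 2, whose sum lay below that of every Gli3+/+ library. Gli3+/+ replicate 1, the other library of high Notch3, had the highest sum, and 3 of the 8 mural markers were highest there. The part of mural cells in the Notch3 values was not tested.

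Dll1 (ENSMUSG00000014773.13, chr17:15367354-15376872, minus strand), a Delta ligand that activates NOTCH in the cell next to it, was at 29.6, 24.4 and 18.7 CPM in Gli3+/+ and at 22.6, 20.4 and 25.6 CPM in Gli3Δ/Δ libraries. The Gli3Δ/Δ values all fell inside the range of the Gli3+/+ values. The log2 fold change was −0.08 (SE 0.19, 95% interval −0.51 to 0.35, edgeR adjusted p = 0.973).

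Jag1 (ENSMUSG00000027276.7, chr2:137081456-137116644, minus strand) was at 118, 98.2 and 129 CPM in Gli3+/+ and at 129, 167 and 109.7 CPM in Gli3Δ/Δ QSCs. Only Gli3Δ/Δ replicate 2 was clear of the Gli3+/+ range, and without it the log2 fold change of 0.23 (SE 0.18, 95% interval −0.18 to 0.65, edgeR adjusted p = 0.895) was 0.05. Without Gli3Δ/Δ replicate 3 it was 0.36. Gli3Δ/Δ replicate 2 was thus the highest library of both Notch3 and Jag1.

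Jag2 (ENSMUSG00000002799.6, chr12:112907819-112929776, minus strand), the lowest of the 10 genes, was at 20.5, 16.0 and 26.2 CPM in Gli3+/+ and at 10.4, 21.3 and 13.0 CPM in Gli3Δ/Δ libraries. In Gli3Δ/Δ mice 2 libraries were below every Gli3+/+ library and Gli3Δ/Δ replicate 2 was above 2 of them. Jag2 had the widest spread of the members, 2.52-fold from the lowest to the highest library. It also had the member fold change furthest from 0, −0.49 on the log2 scale (SE 0.28, 95% interval −1.13 to 0.16, edgeR adjusted p = 0.828). As a fold this interval ran from 0.457 to 1.11. On the log2 scale the Jag2 difference was −0.84 without Gli3Δ/Δ replicate 2 and −0.28 without Gli3Δ/Δ replicate 1.

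Rbpj (ENSMUSG00000039191.12, chr5:53466152-53657362, plus strand) was the steadiest of the 10 genes, at 128, 120.4 and 128 CPM in Gli3+/+ and at 129.6, 131 and 125 CPM in Gli3Δ/Δ QSCs. The highest library was 1.09-fold above the lowest. The log2 fold change was 0.03 (SE 0.12, 95% interval −0.23 to 0.30, edgeR adjusted p = 0.989), an interval of 0.85 to 1.23 as a fold and the narrowest of the members. No Rbpj count was whole, and the processed pseudogene Rbpj-ps3, which could share reads with it, was at 0.801 to 16.8 CPM.

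Hes1 (ENSMUSG00000022528.8, chr16:30064384-30067796, plus strand), a repressor and a direct NOTCH target, was at 405, 294 and 294 CPM in Gli3+/+ and at 261, 305 and 254 CPM in Gli3Δ/Δ libraries. Gli3+/+ replicate 1 was above the other 5, which ran from 254 to 305 CPM. The log2 fold change was −0.28 (SE 0.17, 95% interval −0.65 to 0.10, edgeR adjusted p = 0.843) and was −0.11 without that library and −0.22 to −0.36 without any other.

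Hey1 (ENSMUSG00000040289.8, chr3:8663359-8667256, minus strand), a HEY repressor that satellite cells need together with Heyl to stay quiescent, had the same outlying library. It was at 167, 88.8 and 87.7 CPM in Gli3+/+ and at 80.3, 92.8 and 83.4 CPM in Gli3Δ/Δ QSCs. Without Gli3+/+ replicate 1, the log2 fold change of −0.42 (SE 0.24, 95% interval −0.97 to 0.14, edgeR adjusted p = 0.831) was −0.05, and without any other library it lay between −0.38 and −0.58.

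Heyl (ENSMUSG00000032744.4, chr4:123233556-123249875, plus strand) did not have its highest value in that library. It was at 747, 592 and 754 CPM in Gli3+/+ and at 785, 728 and 579.6 CPM in Gli3Δ/Δ libraries, with means of 698 ± 91.4 and 697 ± 106 CPM (SD, n = 3 each). The 95% interval of its log2 fold change ran from −0.38 to 0.37 (edgeR adjusted p = 1.0).

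**Figure D3:**
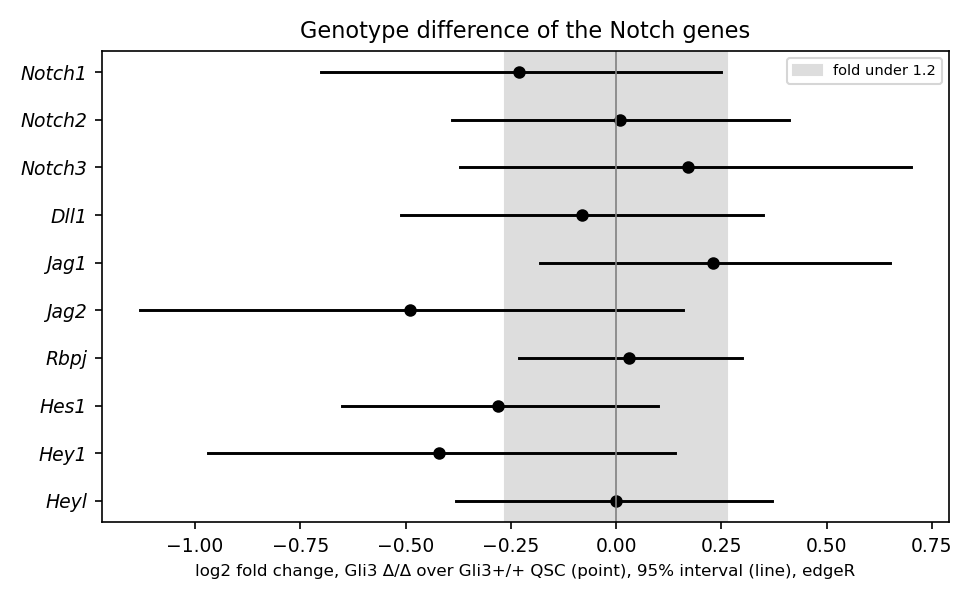
Log2 fold change of Gli3Δ/Δ over Gli3+/+ QSCs (horizontal axis, points) with 95% intervals (lines) from edgeR for each of the 10 genes; the grey band marks folds under 1.2. Every interval includes 0, from Rbpj (−0.23 to 0.30) as the narrowest to Jag2 (−1.13 to 0.16) as the widest.

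Markers of other cell types were read in the same libraries, because Gli3+/+ replicate 1 was the highest library of both Hes1 and Hey1. It was also the highest for the summed endothelial markers (261 CPM against 169.9 to 196 in the other 5; 5 of 8 genes highest there), the macrophage markers (29.0 against 10.8 to 17.7; 6 of 8), the erythroid markers (373 against 33.6 to 169; 5 of 5) and the genes of the response to dissociation (64251 against 46196 to 50242; 6 of 12). The CD45 gene Ptprc was at 2.11 CPM there and at 0.252 to 0.763 elsewhere. The part of these markers in the Hes1 and Hey1 values was not tested. Of the other lists, fibro-adipogenic markers (4244 to 6697 CPM in Gli3+/+ and 5455 to 6075 in Gli3Δ/Δ libraries), lymphocyte markers (2.41 to 2.95 and 1.85 to 3.07) and myofiber markers (44.5 to 60.6 and 48.3 to 71.4) overlapped between genotypes. Schwann cell markers did not, at 72.2 to 105 CPM in Gli3+/+ and 35.4 to 52.1 CPM in Gli3Δ/Δ libraries. In the fibro-adipogenic sum, Col3a1 (mean of 2999.5 CPM over the QSC libraries) and Gsn (2304 CPM) stood far above the other markers. Pdgfra, Lum and Ly6a were at means of 2.15, 2.67 and 5.88 CPM, and Dcn and Col1a1 at 85.9 and 164 CPM. Every marker of these lists was in the table.

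**Figure D4:**
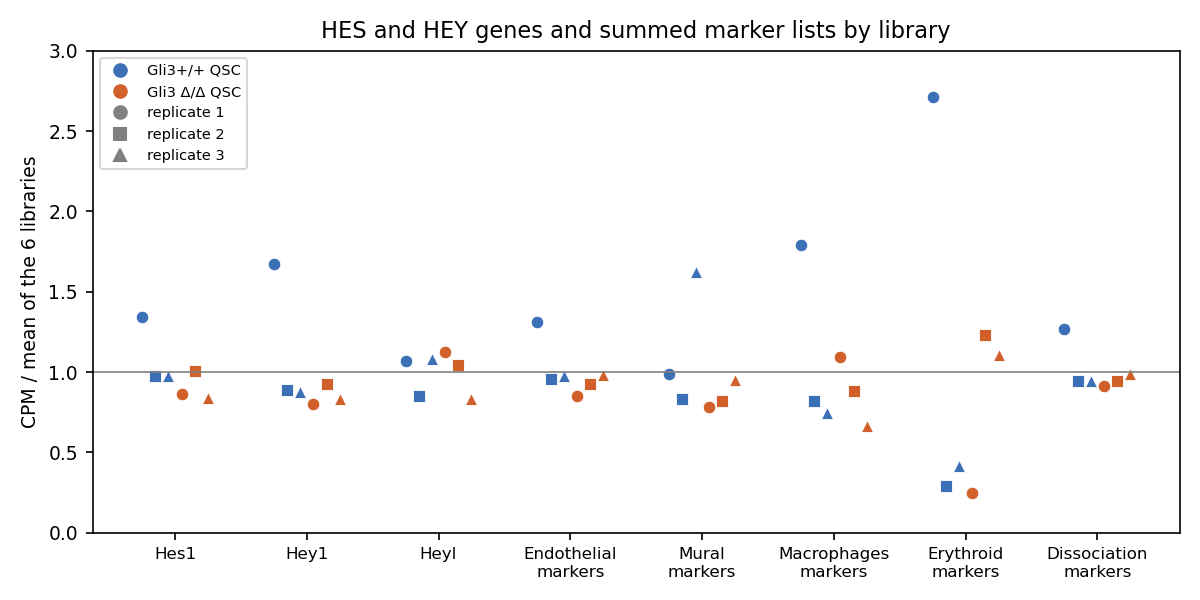
Hes1, Hey1, Heyl and the summed markers of 5 lists in each QSC library, divided by their own mean over the 6 libraries (vertical axis, linear, 1 is the mean); colour gives the genotype and marker shape the replicate. Gli3+/+ replicate 1 (blue circle) is the highest for Hes1 and Hey1 and for the endothelial, macrophage, erythroid and dissociation lists, and not for Heyl. The mural sum is highest in Gli3+/+ replicate 3, through Acta2 (347 CPM there), and without Acta2 it is highest in Gli3+/+ replicate 1 (190 CPM).

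The rest of the pathway was read from a list of 73 genes by role, of which 71 were in the table and 67 had a mean of at least 1 CPM. With edgeR 0 of the 71 were called between genotypes, in either direction; 5 had an unadjusted p under 0.05 and 7 had groups that did not overlap, against 7.11% and 13.0% of all genes. With limma-voom 0 were called as well, beside 0.291% of all genes. DESeq2 called 1 of 71, beside 1.64% of all genes: Numbl, a homologue of the NOTCH inhibitor Numb. Numbl was at 46.8, 61.0 and 58.4 CPM in Gli3+/+ and at 36.6, 33.5 and 35.4 CPM in Gli3Δ/Δ QSCs, so that its groups did not overlap. The other 4 with an unadjusted p under 0.05, named after their values were seen, were the γ-secretase subunit Psen2, the receptor Notch4, the coactivator Maml3 and the corepressor Hdac1. Their log2 fold changes ran from −0.77 for Notch4 to −0.33 for Maml3, and the edgeR adjusted p from 0.357 to 0.698. For Numbl the log2 fold change was −0.66 with edgeR (SE 0.14, adjusted p = 0.156) and −0.65 with DESeq2 (adjusted p = 0.0094).

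The median log2 fold change of the 61 genes of this list other than the 10 was −0.04, with 26 above 0 and 35 below. By role, with the 10 included, it was −0.38 for the 7 ligands, −0.24 for the 7 HES and HEY genes, −0.11 for the 4 receptors, −0.07 for the 4 genes of ligand endocytosis, −0.05 for the 10 inhibitors and turnover genes and 0.08 for the 6 genes described downstream of NOTCH in satellite cells. It was 0.22 for the 5 enzymes that put sugars on the receptors, 0.09 for the 10 genes of receptor cleavage, −0.07 for the 7 genes of the nuclear complex and −0.09 for the 11 corepressors. Dtx4, an E3 ligase of the Deltex family, was among the more abundant, at 726 to 1084 CPM over the 6 libraries. Col5a3, a collagen gene described downstream of NOTCH in satellite cells, was at 851 to 1894 CPM, and Calcr, the calcitonin receptor of QSCs, at 129.5 to 263 CPM. Of the 7 ligands and of the 7 HES and HEY genes, 5 each had a mean of at least 1 CPM. The ligand median was the value of Dll4 (SE 0.48), at a mean of 1.88 CPM. Below it were Jag2 (−0.49) and 2 ligands near 0 CPM. These were Dlk2 (0.0441 CPM, −1.55, SE 1.41) and Dll3 (0.069 CPM, −0.8, SE 1.46). Dll1 (−0.08), Jag1 (0.23) and Dlk1 (0.29) were above it. The HES and HEY median was the value of Hes6 (SE 0.3). Hes6, Hey2, Hes1 and Hey1 were highest in Gli3+/+ replicate 1, and Heyl, Hes7 and Hes2 were not.

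The authors' tables carry, for each gene, a mean of size-factor-scaled counts with the same value in each of 4 tables. It is read here as a mean over all libraries of the series, but the tables do not state which libraries entered it, and the ratios below rest on that reading. Scaled to its own total as CPM are, it allows the QSC libraries to be set beside the whole series without using any unmatched column. On the same reading the mean includes the QSC libraries themselves. The ratios then lie closer to 1 than ratios to the ASC libraries alone would. Of the 10 genes 7 were above this mean in 6 of 6 QSC libraries and 3 were below it in 6 of 6. Among 9591 genes with a mean of at least 10 CPM, every QSC library was above in 24.8% and every one below in 31.4%, and the median ratio of the QSC mean to the authors' mean was 1.01. The authors' mean has no error, so the ratios are a description without a test. Cell state, sorting gate, muscles taken and mice per sample differed together between QSCs and ASCs, and the ratios cannot tell them apart.

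The 3 targets, the 3 receptors and Jag1 were on the high side. The ratio was 1.85 for Heyl, 1.74 for Hes1 and 1.69 for Hey1. Hey1 had 80.4 to 169.6 CPM of the library total in QSCs, beside 59.5 in the authors' mean. For Notch3, with 1217 to 2506 CPM of the total in QSCs beside 987, the ratio was 1.79. Notch2 followed at 1.54 and Notch1 at 1.37, with the lowest QSC library of Notch1 at 297 CPM of the total, just over the authors' mean of 295. The ligand Jag1 had a ratio of 1.64.

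Rbpj, Jag2 and Dll1 were on the low side. Rbpj was at 118 to 134 CPM of the total in QSCs beside 167 in the authors' mean, a ratio of 0.764. The ratio was 0.497 for Jag2 and 0.484 for Dll1, at 23.7 ± 4.5 CPM of the total (SD, n = 6) beside 49.0, and 5.53% of the genes compared had a lower one. Of the 3 ligands, Jag1 was thus above and Dll1 and Jag2 were below the authors' mean.

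Of the 47 other pathway genes with a mean of at least 10 CPM, 23 were above the authors' mean in every QSC library, 9 below and 15 mixed. Calcr (2.01), Dtx4 (1.84), Pax7 (1.83) and Col5a3 (1.74) were above, and Hes6 (0.411), a HES family member linked to differentiation, and Tns3 (0.184) below. A mean over equal numbers of QSC and ASC libraries on a common scale could not give a ratio over 2. Of the 9591 genes, 64 (0.667%) exceeded 2, Calcr among them. Whether the scaling or the libraries in the mean account for these was not tested.

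**Figure D5:**
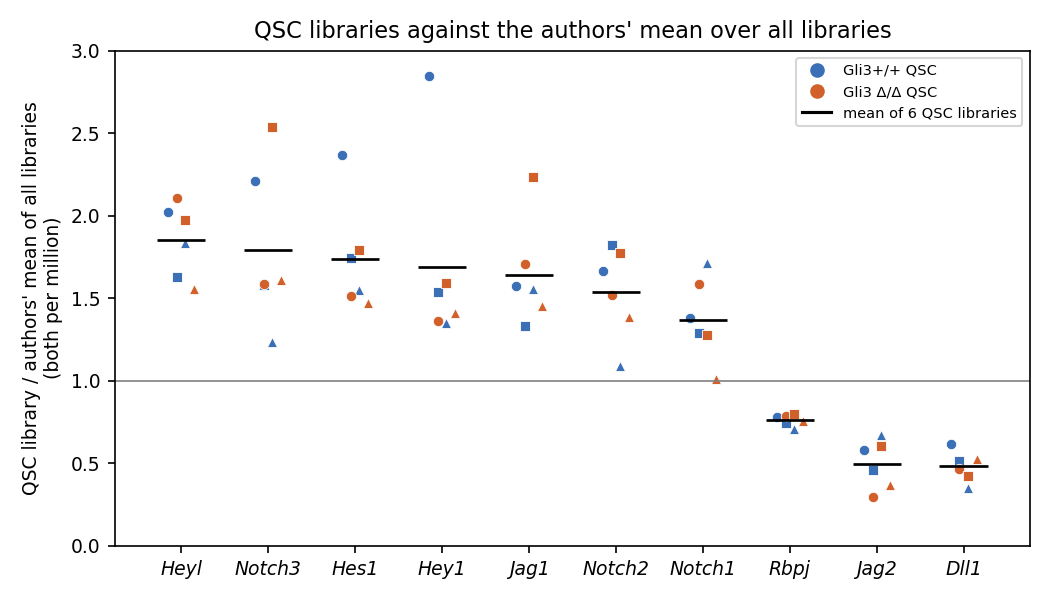
CPM of the total of each QSC library divided by the mean of the authors over all libraries on the same scale (vertical axis, linear; 1 means equal) for the 10 genes, Gli3+/+ in blue and Gli3Δ/Δ in orange, black lines for the mean of 6. From Heyl (1.85) to Notch1 (1.37) each library lies above 1, and for Rbpj (0.764), Jag2 (0.497) and Dll1 (0.484) each lies below.

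The genes whose log2 level varied most like each target over the 6 QSC libraries were picked by Pearson's r among 9582 genes. For Hes1 these were Tmem181a (r = 0.994), Bche (0.993) and Tmem181b-ps (0.980), and for Hey1 they were Morc3 (0.977), Cgrrf1 (0.977) and Tmem181a (0.960). Each was highest in Gli3+/+ replicate 1, the library that also held the highest Hes1 and Hey1. For Heyl they were Nr4a3 (0.993), Gm2260 (0.978) and Egr3 (0.959). Nr4a3 and Egr3 are immediate early transcription factors. Nr4a3 was at 76.8, 36.6 and 78.9 CPM in Gli3+/+ and at 89.8, 77.3 and 30.1 CPM in Gli3Δ/Δ libraries, with the lowest values in the same 2 libraries as Heyl. These r are descriptions over 6 libraries, picked as the highest among all genes compared.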

How the data were processed

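Polyadenylated RNA of sorted satellite cells was sequenced with a kit that keeps the strand. With salmon the authors quantified the GENCODE vM19 transcripts (GRCm38), summed these to genes with tximport, removed genes with few reads and deposited estimated counts without normalization. Their DESeq2 results for 4 comparisons were deposited as well. Only the mean of normalized counts (signal) in the tables deposited by the authors was used; their fold changes and p-values were not. Salmon divides reads that fit several transcripts, and 49.2% of the QSC values were not whole numbers.

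The 6 columns of QSC libraries carry sample titles. The other 6 columns match no label and were not used, so the comparisons of ASCs that the design foresaw could not be made, and the fit over all groups was made on the 6 QSC libraries. By the methods each QSC library combined 2 to 3 mice and libraries are biological replicates, so p-values measure the spread between such pools. Totals were 39556784 to 65750131.

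Rounded counts of all 25093 genes went into edgeR 4.0.16 (R 4.3.3), with TMM scaling, its quasi-likelihood test, Benjamini-Hochberg adjustment and the deposited filter only. Calls required an adjusted p below 0.05 together with a fold of 1.2 or more. The standard error is the log2 fold change divided by the root of F, and intervals are 95% intervals from it. In turn, the test was replaced by DESeq2 1.42.0 or by voom with weights per sample (limma 3.58.1), TMM by the size factors of DESeq2, and the deposited filter by filterByExpr or a minimum of 10 counts in each library. The replicate number was added as a block, the minimum fold was dropped, and single libraries were left out. The mural markers were also summed without Acta2, an alternative chosen after seeing the data. An exact permutation test of 3 against 3 libraries cannot go below p = 0.1 and was not used. The tests were checked on simulated data with 200 of 25093 genes changed, where edgeR called 13 unchanged genes, DESeq2 62 and limma-voom 3.

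The 10 genes and the lists were chosen with earlier results of these data known. All 10 are named, with pathway genes that a test called and others for their role with levels only. Pathway genes with an unadjusted p under 0.05 in edgeR, picked after their values were seen, the other ligands and Hes6 are named with fold changes. For Hes1, Hey1 and Heyl the 3 genes with the highest r of log2(CPM + 1) are named as well. Positions and lengths come from GENCODE vM21, where 96.3% of identifiers have the same version.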

Additional observations from a re-analysis of the deposited data

How the results depend on the processing

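None of the 10 genes was called under any of 13 alternatives, and the lowest adjusted p in 120 fits of single genes was 0.541 (Jag2 without Gli3Δ/Δ replicate 2). The pathway list had 1 call with DESeq2 and 0 under the others. Over all genes the 88 calls were 384 with DESeq2, 48 with at least 10 counts in every library (fewer genes tested) and 58 to 103 when a library was left out; 58 was without Gli3Δ/Δ replicate 3. The cause of the DESeq2 count was not tested. With the replicate number as a block, 79 genes and 0 of the 10 were called. Same-numbered libraries did not deviate together (correlations of −0.276, −0.02 and −0.064). The labels state no pairing, and so few libraries cannot show that there was none. Fold changes near 0 changed sign: Notch2 was −0.06 with limma-voom, and Heyl, −0.0005 on the log2 scale, was 0.01 with DESeq2, 0.01 with its size factors in edgeR and 0.001 with limma-voom. With a library left out, Notch2 ran from −0.14 to 0.13, Notch3 from −0.09 to 0.39, Dll1 from −0.24 to 0.09, Heyl from −0.10 to 0.12, Notch1 from −0.40 to −0.03, Jag1 from 0.05 to 0.36, Jag2 from −0.84 to −0.28, Rbpj from 0.01 to 0.05, Hes1 from −0.36 to −0.11 and Hey1 from −0.58 to −0.05. Notch1, Jag1, Jag2, Rbpj, Hes1 and Hey1 kept their direction under every alternative. Of the 10 places in the order per kb, 6 were kept with the longest transcript and 3 with the coding length. No depth limit was met for the 10 genes, whose lowest count was 545; the number of libraries limits the precision.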
